A study of Mus musculus with 12 samples.

Results

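The Clec genes carry the name of the C-type lectin domain family, and were taken here as the rows of the deposited count table whose gene symbol begins with Clec followed by a digit. This gave 31 of 33100 rows. Of the 31 genes, 24 lie on chromosome 6, and the other 7 lie on chromosomes 7, 8, 9, 11, 12 and 16. The name covers receptors and secreted proteins of different function, so the genes are ordered below by locus and role. Of the 31 genes, 21 passed the filter on low counts and were tested, among 16831 genes in all.

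C-type lectin receptors are membrane proteins of macrophages, monocytes, dendritic cells, neutrophils and platelets that bind sugars, lipids and proteins of microbes, dead cells and neighbouring cells. Activating receptors such as Dectin-1 (Clec7a), Dectin-2 (Clec4n) and Mincle (Clec4e) signal through the kinase Syk and the adaptor Card9, either by a motif of their own or through the adaptor Fcer1g, while inhibitory receptors such as DCIR (Clec4a2) and MICL (Clec12a) recruit phosphatases. The proteins of the Clec2 family stand on the other side of the synapse with natural killer (NK) cells, as ligands of the Klrb1 (NKR-P1) receptors of those cells.

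RNA was sequenced in bulk from sorted mouse cells labelled as NK cells. The 4 groups, of 3 libraries each, were tumor cells of mice with a conditional knockout of 1 gene (cKO), tumor cells of control mice (WT), spleen cells of cKO mice and spleen cells of WT mice. No source used here gives the Cre line, the tumor, the age of the mice or how many mice gave each group, so a p-value measures the spread between libraries, which may be technical. Levels are CPM, counts scaled to the library total with a composition factor. Differences between groups are given on the log2 scale ± SE, from the quasi-likelihood test of edgeR over all genes. A called gene is one whose adjusted p (Benjamini-Hochberg) was under 0.05.

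Library totals ranged from 9542329 to 37118494 counts. In the tumor libraries the label went against the markers: the summed level of 10 macrophage markers was 747 to 1981 CPM in tumor cKO and 5721 to 12230 CPM in tumor WT, while that of 8 NK cell markers was 32.9 to 53.9 CPM in tumor cKO and 49.0 to 173 CPM in tumor WT. In spleen the NK cell markers summed to 1174 to 1441 CPM in cKO and 1148 to 1507 CPM in WT, beside 6 B cell markers at 2003 to 2386 CPM in cKO and 2262 to 2575 CPM in WT. The macrophage markers summed to 108.5 to 143 CPM in spleen cKO, against 36.2 to 59.8 CPM in spleen WT. None of the NK cell, macrophage or B cell markers was at 0 over a whole group. Tumor WT replicate 2 stood apart, with the largest total, the highest macrophage sum and a sum of 6 fibroblast markers of 1622 CPM, against 160 and 78.8 CPM in tumor WT replicates 1 and 3. Tumor cKO replicate 3 had the lowest macrophage sum of the tumor libraries, and results whose call, direction or size, by over 1.5 times, changed without either library are given below with and without it.

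Different Clec genes made up the signal in tumor and in spleen. Per length, Clec7a was the highest in both tumor groups, at 113 ± 47.1 RPKM in tumor cKO and 352 ± 44.7 RPKM in tumor WT (SD, n = 3 each), and its lowest library in each group lay above the highest of any other Clec gene. Clec4n followed with 44.6 ± 19.9 RPKM in tumor cKO and 90.1 ± 28.6 RPKM in tumor WT. Clec4d and Clec4e came next in tumor cKO, at 37.0 ± 15.4 and 36.4 ± 19.2 RPKM, and from Clec4n down to Clec16a each gene in that order overlapped the next. In tumor WT, Clec4d had 59.8 ± 28.4 RPKM and Clec4e 33.5 ± 26.0 RPKM, and neighbours overlapped from Clec4n down to Clec4a2.

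In spleen the order was led by genes of the Clec2 family. Clec2i had 16.1 ± 0.598 RPKM in spleen cKO and 18.1 ± 1.68 RPKM in spleen WT, Clec2d had 12.1 ± 4.02 RPKM in spleen cKO and 12.4 ± 1.70 RPKM in spleen WT, and Clec16a came next with 5.45 ± 0.357 RPKM in spleen cKO and 5.21 ± 0.740 RPKM in spleen WT. The libraries of Clec2i and Clec2d overlapped in spleen cKO and not in spleen WT. As a share of all counts of the library, the Clec genes together took 0.0525% to 0.120% in tumor cKO, 0.174% to 0.192% in tumor WT, 0.0143% to 0.0151% in spleen cKO and 0.0124% to 0.0157% in spleen WT.

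**Figure D1:**
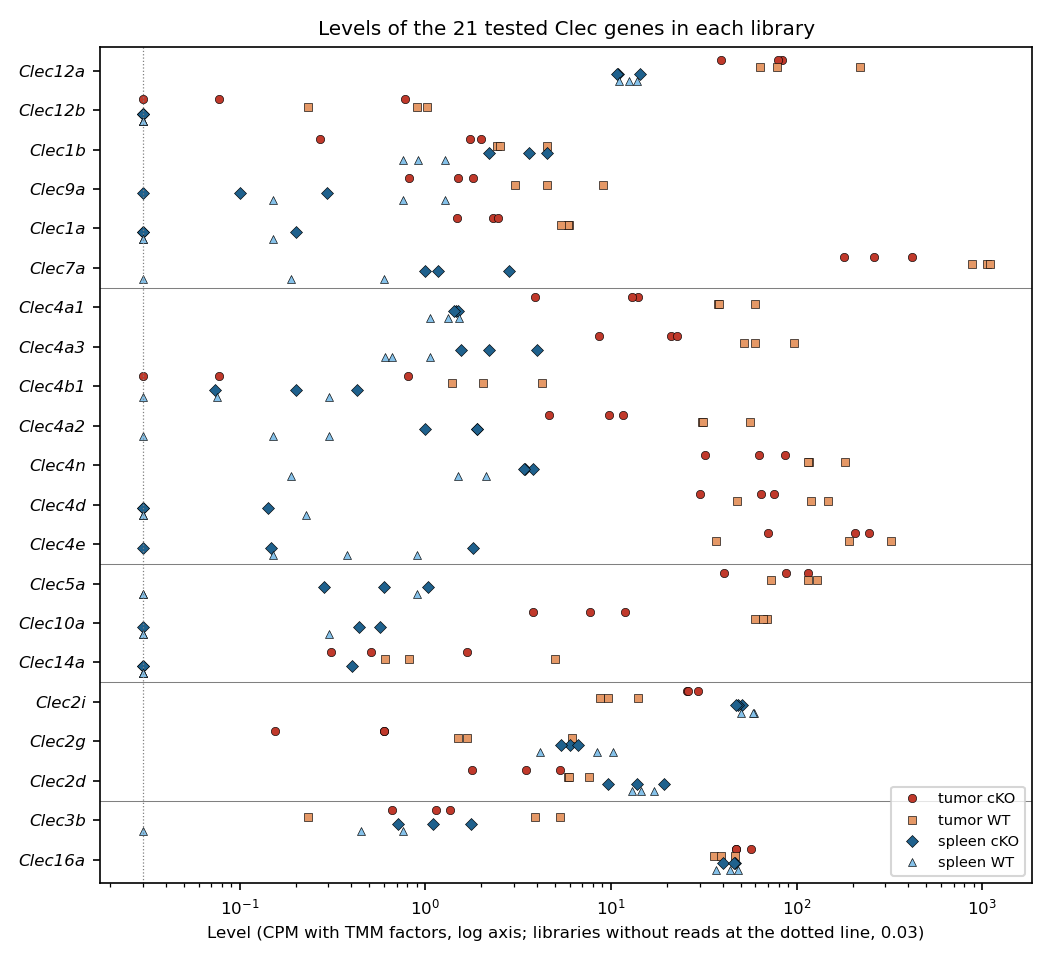
Levels of the 21 tested Clec genes in CPM with composition factors (x axis, log scale), 1 point per library, coloured by group, with genes without reads in a library drawn at the dotted line and horizontal lines between the role groups. Most receptors of the upper rows lie to the right in the 6 tumor libraries, Clec2i and Clec2d lie to the right in the 6 spleen libraries, and Clec16a lies between 35.9 and 56.6 CPM in all 12.

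The make-up of the Clec counts differed between groups too. Clec7a took 28.8% to 35.9% of them in tumor cKO, 45.6% to 55.5% in tumor WT, 0.674% to 2.05% in spleen cKO and 0% to 0.388% in spleen WT. Clec4e took 13.9% to 22.7% in tumor cKO and 1.82% to 16.8% in tumor WT, where the lowest share was that of replicate 2. Clec5a took 8.01% to 9.87% in tumor cKO and 3.64% to 6.67% in tumor WT. In spleen, Clec2i took 31.9% to 35.5% in cKO and 37.4% to 40.8% in WT, and Clec16a took 29.5% to 31.7% in cKO and 29.9% to 31.2% in WT. These shares are not per length, so a longer gene takes more of the counts.

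**Figure D2:**
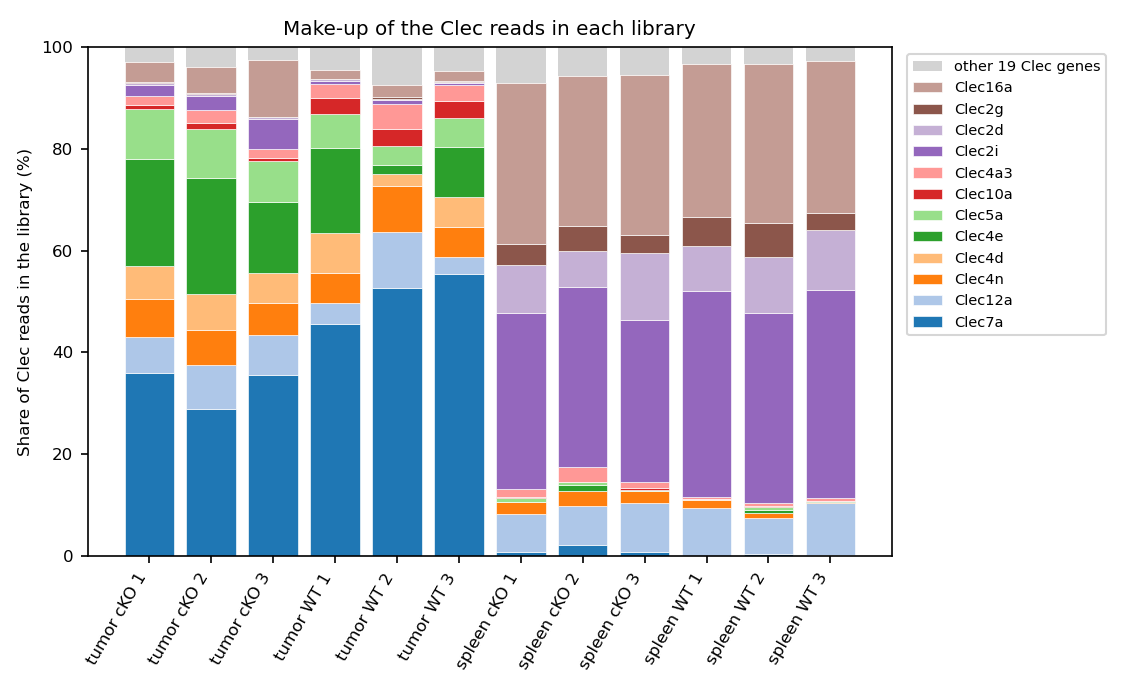
Share of all counts of the 31 Clec genes taken by each gene (y axis, %) in each of the 12 libraries (x axis), with 19 lower genes drawn together. Clec7a takes the largest share in all 6 tumor libraries, and Clec2i and Clec16a the largest shares in all 6 spleen libraries.

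The stretches before the gene starts are shown for the most abundant receptor of the tumor libraries, for a pair of neighbouring genes that code for receptors acting together, and for the leading gene of the spleen libraries. Each is the 250 bases before the start of the gene in RefSeq, build GRCm38.p6, written along the strand of the gene: Clec7a at chr6:129472780-129473029 on the minus strand, Clec4d at chr6:123261857-123262106 on the plus strand, Clec4e at chr6:123289872-123290121 on the minus strand and Clec2i at chr6:128887337-128887586 on the plus strand. Capitals mark GAGGAA or its reverse complement TTCCTC, letters found in many sequences bound by the myeloid and B cell factor PU.1.
Clec7a: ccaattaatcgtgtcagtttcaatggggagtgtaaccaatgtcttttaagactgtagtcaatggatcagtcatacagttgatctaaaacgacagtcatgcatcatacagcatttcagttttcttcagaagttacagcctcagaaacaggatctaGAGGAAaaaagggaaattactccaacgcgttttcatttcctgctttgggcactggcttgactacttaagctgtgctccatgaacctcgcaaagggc
Clec4d: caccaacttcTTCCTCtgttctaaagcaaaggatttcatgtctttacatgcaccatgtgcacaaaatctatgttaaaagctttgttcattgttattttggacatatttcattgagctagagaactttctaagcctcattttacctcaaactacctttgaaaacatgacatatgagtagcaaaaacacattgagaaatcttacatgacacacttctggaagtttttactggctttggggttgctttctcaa
Clec4e: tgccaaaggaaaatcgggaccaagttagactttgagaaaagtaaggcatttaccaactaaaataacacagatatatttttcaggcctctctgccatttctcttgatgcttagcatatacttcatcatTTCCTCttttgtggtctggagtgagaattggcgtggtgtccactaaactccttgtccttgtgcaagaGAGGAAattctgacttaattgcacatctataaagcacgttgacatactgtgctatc
Clec2i: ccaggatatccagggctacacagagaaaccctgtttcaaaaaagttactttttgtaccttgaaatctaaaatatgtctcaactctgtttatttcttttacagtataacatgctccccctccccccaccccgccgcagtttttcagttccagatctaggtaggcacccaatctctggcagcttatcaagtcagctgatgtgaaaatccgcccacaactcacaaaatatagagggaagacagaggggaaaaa

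The letters stood once before Clec7a and Clec4d, and in 2 places before Clec4e, and were not in the window of Clec2i. The RefSeq starts used here covered 24 of the 31 genes, with 27 windows in all. Some starts lay far inside the counted gene, by 16262 bases for Clec4a2, 10718 for Clec18a and 7553 for Clec12a. GAGGAA on either strand was in 15 of these windows, from 14 genes, while 23.3% of all 32851 windows of the same length held it. The letters TGANTCA and TTGCNNAA, those of AP-1 and C/EBP sites, were on either strand each in windows of 4 Clec genes, and in 6.75% and 9.56% of all windows. The windows of Clec12a and Clec18a, which lie inside the counted gene, are among those with GAGGAA and with TGANTCA. A match of letters is a description of the sequence and not a site.

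Most receptors of the Dectin-1 and Dectin-2 clusters were higher in tumor than in spleen, and genes of the Clec2 family were lower. In WT, 17 of the 21 tested genes (81.0%) were called higher in tumor and 2 (9.5%) lower, where 62.0% of all 16831 genes were called, 33.9% higher and 28.1% lower. In cKO, 12 (57.1%) were called higher in tumor and 3 (14.3%) lower, where 60.5% of all genes were called, 31.7% higher and 28.8% lower. The median log2 difference was 6.47 in WT over the tested Clec genes and 0.12 over all genes, or 5.12 with Clec14a and Clec12b, which had no reads in spleen WT, set at the bound that their floor gives. In cKO it was 2.78 (2.76 with Clec12b at its bound), against 0.07 over all genes. Many of these genes passed the filter through the tumor libraries alone and so had to be higher there, and the counts are a description only. The 2 comparisons share no library, and the drop from 17 to 12 is not itself a test.

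In the tumor, several Clec genes of myeloid receptors were lower in cKO than in WT and Clec2i was higher. Of the 21 tested genes, 9 (42.9%) were called lower in tumor cKO, Clec7a, Clec9a, Clec4a1, Clec4a2, Clec4a3, Clec4b1, Clec4n, Clec10a and Clec2g, and 1 (4.8%) was called higher. Over all 16831 genes 38.0% were called in this comparison, 21.6% lower and 16.4% higher, so that 10 of 21 called (47.6%) is near the background. Tumor WT was the only group in which Clec4b1 was above 1 CPM. It thus passed the filter mainly through the group where it was high, and its place among the 9 is a description only. The median log2 difference was -1.43 over the tested Clec genes and -0.12 over all genes. In bulk samples fewer cells of a type and less RNA per cell cannot be told apart. All 10 macrophage markers were lower in tumor cKO as well, and their part in these calls was not tested.

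The counts moved with single libraries. Without tumor WT replicate 2, 7 Clec genes were called lower and 2 higher, without tumor cKO replicate 3, 6 were lower and 1 higher, and without these 2 libraries together, 7 were lower and 1 higher. The 3 cKO libraries lay below the 3 WT libraries in 12 of the 21 genes and above them in 2, Clec2i and Clec16a. Over all genes the groups did not overlap in 50.3%, with cKO lower in 27.3% and higher in 23.0%. Without a composition factor, 7 were lower and 2 higher, and the share of higher calls over all genes was 57.4%, against 43.1% with it. With that scaling the median log2 difference of all genes was 0.05 for tumor cKO against WT, in place of -0.12, and -0.02 for tumor against spleen in WT, in place of 0.12.

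**Figure D3:**
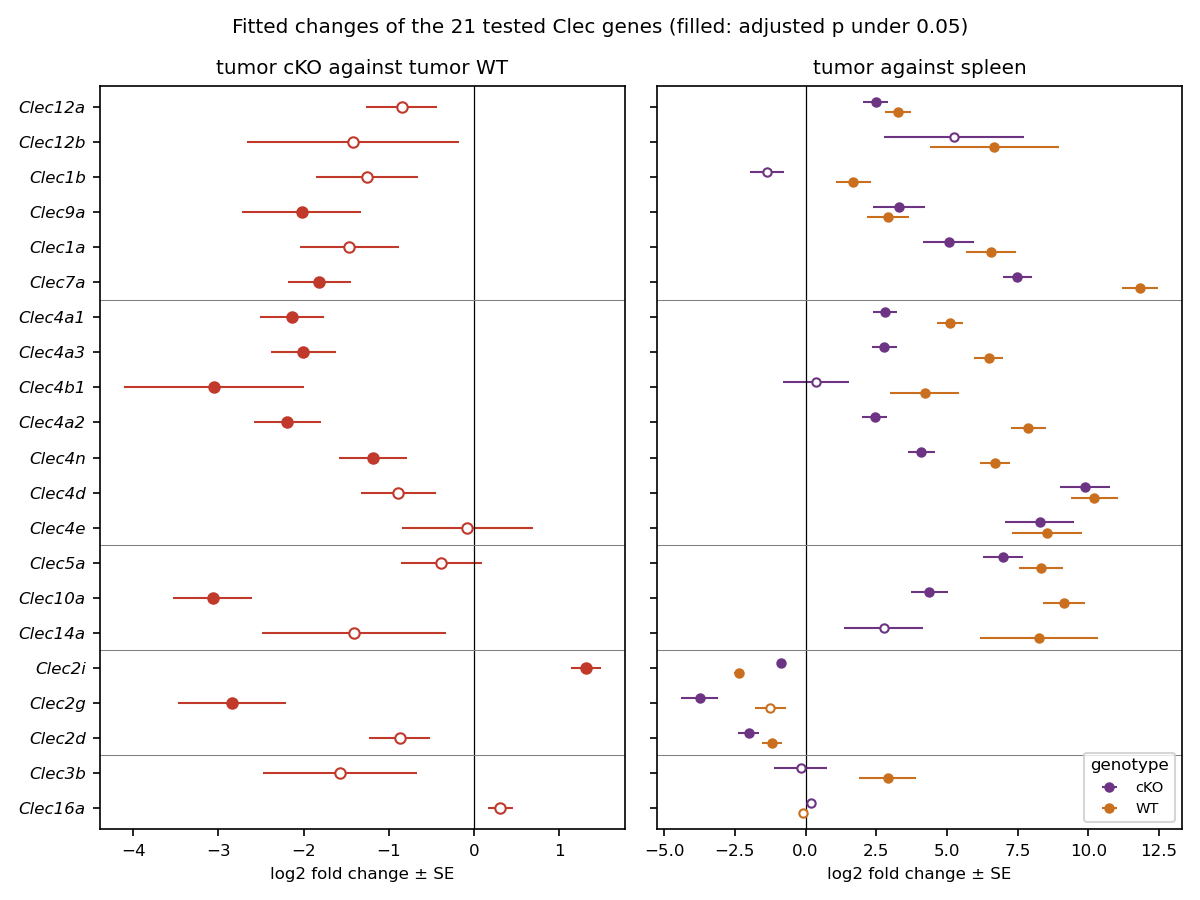
Fitted log2 fold changes ± SE of the 21 tested Clec genes for tumor cKO against tumor WT (left) and for tumor against spleen in cKO and in WT (right), with filled points at an edgeR adjusted p under 0.05. On the left 9 genes are filled below 0 and Clec2i is filled above 0, and on the right 3 genes of the Clec2 family lie below 0 in both genotypes.

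The genes of the Dectin-1 cluster lie side by side at the end of the Clec stretch of chromosome 6. Clec7a, at chromosome 6, 129461591 to 129472779 on the minus strand, codes for Dectin-1, the receptor for fungal beta-glucan. Clec7a had 419, 262 and 179 CPM in tumor cKO, against 876, 1058 and 1096 CPM in tumor WT. The spleen levels were 1.17, 2.81 and 0.995 CPM in cKO, against 0, 0.603 and 0.189 CPM in WT. All 6 tumor libraries lay far above all 6 spleen libraries, and the genotypes did not overlap in either tissue, with cKO the lower in tumor and the higher in spleen. Clec7a fell in tumor cKO by 1.82 ± 0.37 on the log2 scale (adjusted p = 0.00278). Tumor exceeded spleen by 7.50 ± 0.51 in cKO (adjusted p = 3.41e-07) and by 11.84 ± 0.64 in WT (adjusted p = 6.31e-08).

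Clec12a codes for MICL, an inhibitory receptor of myeloid cells that binds uric acid crystals. Clec12a had 82.9, 79.1 and 39.4 CPM in tumor cKO, against 78.0, 220 and 63.4 CPM in tumor WT. Its spleen values were 10.9, 10.7 and 14.4 CPM in cKO, against 13.8, 11.0 and 12.6 CPM in WT. The genotypes overlapped in both tissues, and tumor WT replicate 2 was alone above 100 CPM. The tumor log2 difference between cKO and WT was -0.85 ± 0.42 (adjusted p = 0.133), and it rests on tumor WT replicate 2: without that library the difference was -0.07 (adjusted p = 0.859), and with tumor cKO replicate 3 left out as well it was 0.20. It was called without tumor WT replicate 3 (-1.14, adjusted p = 0.0468) and without a filter on low counts (adjusted p = 5.62e-05). Tumor exceeded spleen by 2.48 ± 0.45 in cKO (adjusted p = 0.000627) and by 3.28 ± 0.46 in WT (adjusted p = 9.24e-05).

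Clec9a codes for DNGR-1, a receptor of cross-presenting dendritic cells for the actin of dead cells. Clec9a had 1.50, 1.80 and 0.814 CPM in tumor cKO, against 3.02, 9.01 and 4.52 CPM in tumor WT. In spleen it had 0.294, 0.1002 and 0 CPM in cKO, against 0.152, 1.28 and 0.756 CPM in WT. The genotypes did not overlap in tumor and overlapped in spleen. Clec9a fell in tumor cKO by 2.02 ± 0.70 (adjusted p = 0.0357). The call was lost without any 1 of 5 libraries, tumor cKO replicates 1 to 3 (adjusted p = 0.0782, 0.0612 and 0.127) and tumor WT replicates 2 and 3 (adjusted p = 0.135 and 0.0523), or without a composition factor (adjusted p = 0.0527). With tumor WT replicate 2 and tumor cKO replicate 3 both left out the value was -1.19. Tumor exceeded spleen by 3.29 ± 0.92 in cKO (adjusted p = 0.00743) and by 2.92 ± 0.75 in WT (adjusted p = 0.00435). The summed level of 8 dendritic cell markers was 55.9 to 134 CPM in tumor cKO and 271 to 799 CPM in tumor WT, with 3 of the 7 tested markers called lower. Most of the sum was Itgax, at 91.8, 58.1 and 30.0 CPM in tumor cKO, against 212.5, 742.7 and 273.8 CPM in tumor WT. Itgax, Batf3 and Cd209a were called lower, while Flt3, Zbtb46, Xcr1 and Ccr7 were not called. The part of dendritic cells in the Clec9a call was not tested.

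Clec1b codes for CLEC-2, the receptor of platelets for podoplanin. Clec1b had 2.01, 1.74 and 0.271 CPM in tumor cKO, against 2.44, 4.53 and 2.53 CPM in tumor WT. The spleen levels were 3.60, 2.21 and 4.55 CPM in cKO, against 0.911, 1.28 and 0.756 CPM in WT. The genotypes did not overlap in either tissue, with cKO the lower in tumor and the higher in spleen. Neither difference passed the test: it was -1.26 ± 0.60 in tumor (adjusted p = 0.114, or -0.76 without tumor cKO replicate 3) and 1.80 ± 0.63 in spleen (adjusted p = 0.932). Tumor exceeded spleen in WT by 1.69 ± 0.63 (adjusted p = 0.0315), which was lost without spleen WT replicate 1 or 3 (adjusted p = 0.0832 and 0.0908) or tumor WT replicate 2 (adjusted p = 0.0977). In cKO the difference was -1.38 ± 0.60 (adjusted p = 0.0639), and it was called without tumor cKO replicate 1 (adjusted p = 0.0467) and by limma on RPKM (adjusted p = 0.0374). Without tumor cKO replicate 3 it was -0.88. The sum of 6 platelet markers was 12.2 to 42.0 CPM in tumor cKO and 190 to 203 CPM in tumor WT, most of it Pf4. It was under 3 CPM in each spleen library. In tumor cKO 2 of the 4 tested platelet markers, Pf4 and Itga2b, were called lower. Ppbp was lower and not called, and Gp1bb went the other way and was not called (1.0 ± 0.88, adjusted p = 0.390). Gp9, Ppbp and Treml1 were at 0 in spleen WT and Ppbp in spleen cKO. The part of platelets in the Clec1b levels was not tested.

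Clec1a codes for MelLec, a receptor for fungal melanin. Clec1a had 2.31, 2.47 and 1.47 CPM in tumor cKO, against 5.93, 5.89 and 5.36 CPM in tumor WT. It had 1 spleen library with reads in each genotype, at 0.201 CPM in spleen cKO replicate 2 and 0.151 CPM in spleen WT replicate 2. The tumor groups did not overlap, with every cKO library below every WT library. The tumor difference was -1.46 ± 0.59 with edgeR (adjusted p = 0.0644) and was called by DESeq2 (adjusted p = 0.00398), by limma on RPKM (adjusted p = 0.00746) and, with edgeR, without spleen cKO replicate 2 (adjusted p = 0.0393) or with only the 2 groups in the fit (adjusted p = 0.0143). Over pooled counts, tumor was 38.1-fold above spleen in cKO (95% counting interval 10.3 to 318, edgeR adjusted p = 0.000317) and 107-fold above spleen in WT (29.4 to 885, edgeR adjusted p = 3.10e-05). Clec12b, an inhibitory receptor, had 0 to 0.782 CPM in tumor cKO and 0.233 to 1.03 CPM in tumor WT and no reads in the 6 spleen libraries, which allows up to 0.0796 CPM in spleen cKO and 0.0810 CPM in spleen WT. Against that floor of 3 counts over the group it was at least 2.86-fold higher in tumor in cKO and at least 9.44-fold higher in WT. It was not called in cKO (adjusted p = 0.0945), and the WT call (adjusted p = 0.0289) was lost without any 1 of the spleen WT replicates 1 to 3 (adjusted p = 0.0662, 0.0662 and 0.0603) or tumor WT replicate 3 (adjusted p = 0.0572).

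The Dectin-2 and DCIR genes form a second cluster, from 122921848 to 123289870 on chromosome 6. Clec4n codes for Dectin-2, the receptor for fungal mannans. Clec4n had 87.1, 63.1 and 32.3 CPM in tumor cKO, against 116, 183 and 116 CPM in tumor WT. Its spleen values were 3.45, 3.81 and 3.41 CPM in cKO, against 2.13, 1.51 and 0.189 CPM in WT. The genotypes did not overlap in either tissue, again with cKO the lower in tumor and the higher in spleen. Clec4n fell in tumor cKO by 1.19 ± 0.40 (adjusted p = 0.0341). The call was lost without any 1 of 7 libraries, spleen cKO replicates 1 to 3, spleen WT replicate 2, tumor cKO replicates 2 and 3 and tumor WT replicate 2, with adjusted p from 0.0510 to 0.114. It was also lost without a composition factor (adjusted p = 0.0658), with only the 2 groups in the fit (adjusted p = 0.0543) and by limma on RPKM (adjusted p = 0.178). With tumor WT replicate 2 and tumor cKO replicate 3 both left out the value was -0.62. Tumor exceeded spleen by 4.10 ± 0.47 in cKO (adjusted p = 1.85e-05) and by 6.70 ± 0.54 in WT (adjusted p = 1.04e-06).

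Clec4d and Clec4e are neighbours on opposite strands and code for MCL and Mincle, which form a receptor for mycobacterial glycolipid together with Fcer1g. Clec4d had 75.9, 64.2 and 30.1 CPM in tumor cKO, against 148, 47.7 and 119 CPM in tumor WT. Clec4e had 244, 206 and 70.0 CPM in tumor cKO, against 323, 36.6 and 191 CPM in tumor WT. The genotypes overlapped for both genes, and tumor WT replicate 2 was the lowest WT library for both, below all 3 cKO libraries for Clec4e. For Clec4d the tumor difference was -0.89 ± 0.44 (adjusted p = 0.132), and it was called without tumor WT replicate 2 (-1.24, adjusted p = 0.0222) and without a filter on low counts (adjusted p = 9.40e-05), and was -0.58 without tumor cKO replicate 3. For Clec4e it was -0.08 ± 0.77 (adjusted p = 0.950), and its sign turned without a composition factor (0.12), by limma on RPKM (0.39), without tumor cKO replicate 3 (0.30) and without tumor WT replicate 1 (0.61), while without tumor WT replicate 2 it was -0.57. In spleen, Clec4d had reads in 1 library of each genotype, at 0.142 CPM in cKO and 0.228 CPM in WT. Clec4e had 0.147, 1.80 and 0 CPM in spleen cKO, against 0.152, 0.904 and 0.378 CPM in spleen WT, and the genotypes overlapped. Over pooled counts Clec4d was 1036-fold higher in tumor than in spleen in cKO (95% counting interval 287 to 8560, edgeR adjusted p = 2.54e-06) and 1108-fold higher in WT (379 to 5376, edgeR adjusted p = 1.16e-06). Clec4e was higher in tumor by 8.28 ± 1.21 in cKO (adjusted p = 0.000241) and by 8.54 ± 1.23 in WT (adjusted p = 0.000202).

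The DCIR genes Clec4a1, Clec4a2 and Clec4a3 code for closely related receptors, of which DCIR itself (Clec4a2) carries an inhibitory motif and restrains dendritic cells. Clec4a1 had 14.1, 13.1 and 3.91 CPM in tumor cKO, against 37.6, 59.7 and 38.4 CPM in tumor WT. Clec4a2 had 9.78, 11.6 and 4.61 CPM in tumor cKO, against 30.9, 55.9 and 31.5 CPM in tumor WT. Clec4a3 had 21.2, 22.7 and 8.60 CPM in tumor cKO, against 52.2, 97.4 and 59.8 CPM in tumor WT. The groups did not overlap for these 3 genes, and the extremes came from the same libraries, the lowest cKO value from replicate 3 and the highest WT value from replicate 2. In tumor cKO Clec4a1 fell by 2.14 ± 0.37 (adjusted p = 0.000874), Clec4a2 by 2.19 ± 0.39 (adjusted p = 0.00103) and Clec4a3 by 2.0 ± 0.38 (adjusted p = 0.00173). These 3 calls held under the 21 alternatives tried.

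In spleen the same 3 genes were low. Clec4a1 had 1.47, 1.50 and 1.42 CPM in spleen cKO, against 1.52, 1.05 and 1.32 CPM in spleen WT. Clec4a2 had 1.91, 1.90 and 0.995 CPM in spleen cKO, against 0.304, 0.151 and 0 CPM in spleen WT. Clec4a3 had 2.20, 4.01 and 1.56 CPM in spleen cKO, against 0.607, 1.05 and 0.662 CPM in spleen WT. The genotypes overlapped for Clec4a1 and did not for Clec4a2 and Clec4a3, with cKO the higher. Tumor exceeded spleen for Clec4a1 by 2.81 ± 0.43 in cKO (adjusted p = 0.000113) and by 5.12 ± 0.46 in WT (adjusted p = 1.01e-06). For Clec4a2 it was 2.44 ± 0.45 in cKO (adjusted p = 0.000437) and 7.88 ± 0.61 in WT (adjusted p = 3.08e-07), and for Clec4a3 2.78 ± 0.43 in cKO (adjusted p = 0.000157) and 6.47 ± 0.52 in WT (adjusted p = 6.19e-07).

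Clec4b1 codes for an activating receptor of the same cluster. Clec4b1 had 0.811, 0 and 0.0775 CPM in tumor cKO, against 2.03, 4.25 and 1.39 CPM in tumor WT. In spleen it had 0.0734, 0.201 and 0.426 CPM in cKO, against 0.0759, 0.301 and 0 CPM in WT. The genotypes did not overlap in tumor and overlapped in spleen, at a few reads per library. Clec4b1 fell in tumor cKO by 3.05 ± 1.06 (adjusted p = 0.0366). The call was lost without tumor cKO replicate 2 or 3 (adjusted p = 0.0934 and 0.130) or tumor WT replicate 1 or 2 (adjusted p = 0.0578 and 0.109), or with only the 2 groups in the fit (adjusted p = 0.0702). Without tumor cKO replicate 1 the value was -5.62, and with tumor WT replicate 2 and tumor cKO replicate 3 both left out it was -1.98. Tumor exceeded spleen in WT by 4.22 ± 1.22 (adjusted p = 0.00880). Of the stretches of 50 bases in its transcripts, 8.68% also occur in other genes, most often in Clec4a2, so part of its reads cannot be placed for certain.

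Clec10a, at chromosome 11, 70156197 to 70170834 on the plus strand, codes for MGL1, a receptor of macrophages and dendritic cells for galactose-type sugars. Clec10a had 7.69, 11.96 and 3.80 CPM in tumor cKO, against 59.99, 69.5 and 65.5 CPM in tumor WT. The spleen levels were 0.440, 0 and 0.569 CPM in cKO, against 0, 0.301 and 0 CPM in WT. The tumor groups were far apart, with the highest cKO library well below the lowest WT library, and the spleen groups overlapped. Clec10a fell in tumor cKO by 3.07 ± 0.47 (adjusted p = 0.000463), and the call held under the 21 alternatives tried. Tumor exceeded spleen by 4.38 ± 0.64 in cKO (adjusted p = 0.000104) and by 9.15 ± 0.75 in WT (adjusted p = 8.90e-07), and the WT value was 13.18 without spleen WT replicate 2, the only spleen WT library with reads, which were 4. Of its stretches of 50 bases, 9.02% also occur in other genes, most often in Mgl2.

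Clec5a codes for MDL-1, which signals through the adaptors Tyrobp and Hcst. Clec5a had 115, 87.4 and 40.4 CPM in tumor cKO, against 128, 73.1 and 116 CPM in tumor WT. Its spleen values were 1.03, 0.601 and 0.284 CPM in cKO, against 0, 0.904 and 0 CPM in WT. The genotypes overlapped in both tissues. The tumor difference was -0.38 ± 0.47 (adjusted p = 0.555), and it was -0.59 without tumor WT replicate 2 and -0.05 without tumor cKO replicate 3. Tumor exceeded spleen by 6.97 ± 0.70 in cKO (adjusted p = 9.19e-06) and by 8.33 ± 0.77 in WT (adjusted p = 4.37e-06), and the WT value was 13.88 without spleen WT replicate 2, the only spleen WT library with reads.

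Clec14a codes for an endothelial receptor that binds multimerin 2. Clec14a had 0.512, 1.68 and 0.310 CPM in tumor cKO, against 0.814, 5.01 and 0.603 CPM in tumor WT. In spleen it had reads in 1 library, at 0.401 CPM in cKO replicate 2, and none in WT. The tumor genotypes overlapped, and the tumor difference of -1.41 ± 1.08 (adjusted p = 0.331) became 0.21 without tumor WT replicate 2. The sum of 6 endothelial markers was also highest in that library, at 361 CPM, against 156 and 142 CPM in tumor WT replicates 1 and 3, and it was 57.3 to 90.5 CPM in tumor cKO, where 2 of the 6 markers were called lower, and 1 without that library. Pecam1 made up much of this sum, at 107, 162 and 119 CPM in tumor WT and 55, 53.45 and 46.6 CPM in tumor cKO. In spleen the sum was 144 to 178 CPM in cKO and 159 to 180 CPM in WT, nearly all of it Pecam1. Against the floor, Clec14a in WT was at least 36.0-fold higher in tumor (edgeR adjusted p = 0.00504).

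In the Clec2 family the fitted tumor levels lay below those of spleen for the 3 tested genes. Clec2i, at chromosome 6, 128887588 to 128898167 on the plus strand, codes for Clr-g, a ligand of the NK cell receptor Klrb1f. Clec2i had 25.6, 25.9 and 29.4 CPM in tumor cKO, against 9.59, 14.0 and 8.68 CPM in tumor WT. In spleen it had 50.9, 48.5 and 47.1 CPM in cKO, against 58.7, 58.1 and 50.0 CPM in WT. The tumor genotypes did not overlap, with cKO the higher, and both lay below all 6 spleen libraries. Clec2i rose in tumor cKO by 1.32 ± 0.17 (adjusted p = 0.000147), and it was lower in tumor than in spleen by a log2 difference of -0.85 ± 0.17 in cKO (adjusted p = 0.000749) and of -2.36 ± 0.18 in WT (adjusted p = 1.94e-07). These 3 calls held under the 21 alternatives tried. Among 7 T cell markers 3, Cd3d, Cd3g and Trac, were called higher in tumor cKO. Cd3e and Cd5 were above 0 and not called, while Cd4 (-0.13 ± 0.41) and Cd8a (-0.19 ± 0.89) were below 0 and not called. The sum of the 7 markers was 377 to 563 CPM in tumor cKO and 205 to 255 CPM in tumor WT. Cd3g had the largest part of that sum. In spleen the sum was lower, at 87.0 to 156 CPM in cKO and 64.1 to 84.4 CPM in WT. The part of T cells in the Clec2i level was not tested.

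Clec2d codes for Clr-b, the ligand of the inhibitory NK cell receptor Klrb1b. Clec2d had 5.34, 3.49 and 1.78 CPM in tumor cKO, against 7.62, 5.86 and 5.97 CPM in tumor WT. The spleen levels were 13.8, 9.62 and 19.3 CPM in cKO, against 12.9, 17.0 and 14.5 CPM in WT. The tumor genotypes did not overlap, and every tumor library lay below every spleen library. The tumor difference between cKO and WT was -0.87 ± 0.35 (adjusted p = 0.0676), and it was called without tumor cKO replicate 1 (-1.31, adjusted p = 0.0157) and without a filter on low counts (adjusted p = 0.0330). Without tumor cKO replicate 3 it was -0.54. Clec2d was lower in tumor than in spleen, by -2.02 ± 0.36 in cKO (adjusted p = 0.000338) and -1.19 ± 0.35 in WT (adjusted p = 0.00943).

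Clec2g, a further gene of the family, had 0.598, 0.601 and 0.155 CPM in tumor cKO, against 1.69, 6.17 and 1.51 CPM in tumor WT. Its spleen values were 6.02, 6.62 and 5.40 CPM in cKO, against 8.43, 10.2 and 4.16 CPM in WT. The tumor genotypes did not overlap, the spleen genotypes did, and tumor WT replicate 2 lay within the spleen range. Clec2g fell in tumor cKO by 2.84 ± 0.63 (adjusted p = 0.00377), and without tumor WT replicate 2 the value was -1.85 (adjusted p = 0.0133), or -1.39 (adjusted p = 0.0427) with tumor cKO replicate 3 left out too. It was lower in tumor than in spleen in cKO, at -3.75 ± 0.65 (adjusted p = 0.000263). In WT the difference of -1.25 ± 0.55 was not called (adjusted p = 0.0633), and it was called without tumor WT replicate 2 (-2.24, adjusted p = 0.00145), spleen WT replicate 3 (adjusted p = 0.0390) or tumor cKO replicate 3 (adjusted p = 0.0458). DESeq2 (adjusted p = 0.0494), limma on RPKM (adjusted p = 0.0246) and edgeR without a filter on low counts (adjusted p = 0.0189) called it as well. Clec2g and Clec2i thus moved in opposite directions in tumor cKO, although 3.90% of the stretches of 50 bases of Clec2g and 4.13% of those of Clec2i also occur in other genes, each most often in the other.

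Clec3b codes for tetranectin, a secreted protein that binds plasminogen. Clec3b had 1.37, 1.14 and 0.659 CPM in tumor cKO, against 0.233, 3.89 and 5.30 CPM in tumor WT. In spleen it had 1.76, 1.10 and 0.711 CPM in cKO, against 0.759, 0.452 and 0 CPM in WT. The genotypes overlapped in both tissues, and tumor WT replicate 1 was the lowest tumor library. The tumor difference was -1.58 ± 0.90 (adjusted p = 0.187), and it was called without that library (-2.11, adjusted p = 0.0472). Tumor exceeded spleen in WT by 2.90 ± 1.0 (adjusted p = 0.0232), which was lost without spleen WT replicate 2 or 3 (adjusted p = 0.0629 and 0.0631) or tumor WT replicate 3 (adjusted p = 0.0769), with only the 2 groups in the fit (adjusted p = 0.0643) and by limma on RPKM (adjusted p = 0.0656). Clec16a, which codes for a protein of endosomes and autophagy and no surface receptor, had 46.9 to 56.6 CPM in tumor cKO, 35.9 to 46.7 CPM in tumor WT, and in spleen 40.3 to 46.5 CPM in cKO and 36.7 to 48.6 CPM in WT. Its tumor difference was 0.31 ± 0.15 (adjusted p = 0.120), and it was called without tumor WT replicate 2 (0.43, adjusted p = 0.0355), without a composition factor (0.48, adjusted p = 0.0261) and by limma on RPKM (0.49, adjusted p = 0.0369).

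Set against the macrophage markers of the same library, some tumor genes overlapped between the genotypes and others lay at larger proportions in cKO. Clec4a1 was 0.524% to 0.709% of the summed CPM of the 10 markers in tumor cKO and 0.488% to 0.657% in tumor WT, and Clec4a2 was 0.494% to 0.617% in tumor cKO and 0.450% to 0.539% in tumor WT. Both overlapped between the genotypes, as did Clec7a, at 13.8% to 24.0% in tumor cKO and 8.65% to 15.7% in tumor WT, and Clec10a, at 0.388% to 0.631% in tumor cKO and 0.568% to 1.05% in tumor WT. For Clec4a3, Clec4e, Clec5a, Clec12a, Clec4n and Clec4d the 3 cKO libraries lay above the 3 WT libraries. The same held for Clec1a, Clec9a and Clec2d, at lower proportions. Clec4a3 was 1.07% to 1.20% in tumor cKO and 0.796% to 0.912% in tumor WT. Clec4e was 9.36% to 12.3% in tumor cKO and 0.299% to 5.65% in tumor WT. Clec5a was 4.61% to 5.80% in tumor cKO and 0.598% to 2.24% in tumor WT. Clec12a was 4.17% to 5.27% in tumor cKO and 0.907% to 1.80% in tumor WT. Clec4n was 3.32% to 4.40% in tumor cKO and 1.49% to 2.03% in tumor WT, and Clec4d was 3.38% to 4.03% in tumor cKO and 0.390% to 2.59% in tumor WT. The lowest proportion of Clec4e, Clec5a and Clec4d was that of tumor WT replicate 2. Clec2i was 1.29% to 3.94% in tumor cKO and 0.114% to 0.168% in tumor WT, and which cells carried it was not tested. These proportions were not tested, and they depend on the markers chosen, among which Lyz2 and Mrc1 had the most reads in tumor WT. The marker sum was itself lower in every tumor cKO library than in every tumor WT library. A gene that fell less than the markers thus lies higher in cKO by this measure. How many of all genes do so was not counted.

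**Figure D4:**
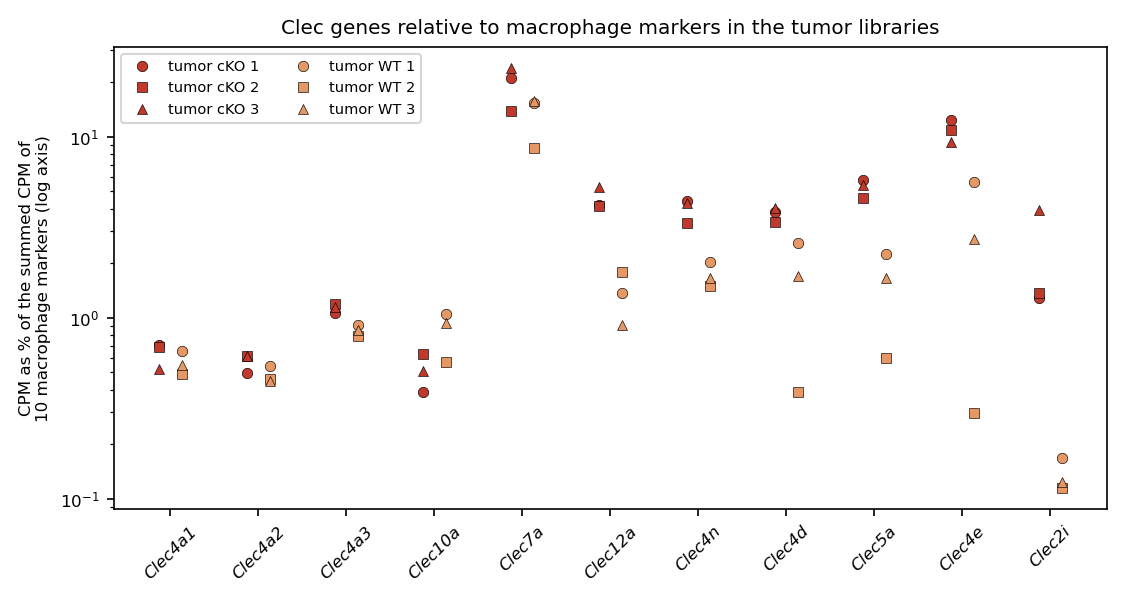
CPM of 11 Clec genes as a percentage of the summed CPM of 10 macrophage markers (y axis, log scale) in each of the 6 tumor libraries, with 1 symbol per replicate number and 1 colour per genotype. The genotypes overlap for Clec4a1, Clec4a2, Clec10a and Clec7a, and the 3 cKO libraries lie above the 3 WT libraries for Clec4a3, Clec12a, Clec4n, Clec4d, Clec5a, Clec4e and Clec2i.

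In spleen no tested Clec gene was called between cKO and WT by edgeR, and 6 of the 21 (28.6%) had an unadjusted p under 0.05, against 4.66% of all genes. Over all genes 0.0297% were called in this comparison, which is 5 of 16831. DESeq2 called Clec4a2 higher (adjusted p = 0.00579), as did edgeR with tumor WT replicate 2 and tumor cKO replicate 3 both left out (adjusted p = 0.0208), and edgeR without a filter on low counts called Clec4a2, Clec4a3, Clec4n and Clec7a higher. In 5 genes, Clec4a2, Clec4a3, Clec4n, Clec1b and Clec7a, the 3 cKO libraries lay above the 3 WT libraries, where 5.94% of all genes did so, and in no Clec gene did they lie below, where 5.43% of all genes did. The groups did not overlap in 11.4% of all genes. Clec4a2 was the gene with the smallest p among them, at 3.25 ± 0.71 (adjusted p = 0.422). The sum of the macrophage markers was also higher in each spleen cKO library than in each spleen WT library. Relative to that sum Clec4a2 was at 0.889% to 1.76% in spleen cKO and 0% to 0.513% in spleen WT, where it had 4, 2 and 0 reads. The other genes of the 5 overlapped. Clec4n was at 2.65% to 3.18% in spleen cKO and 0.522% to 3.59% in spleen WT, and Clec4a3, Clec7a and Clec1b overlapped as well.

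The cKO effect in tumor differed from that in spleen for 8 of the 21 tested genes. The difference of the effects was below 0 for 7 (33.3%), Clec10a, Clec4a1, Clec4a2, Clec4a3, Clec4n, Clec1b and Clec7a, and above 0 for Clec2i (4.8%), where 18.3% of all genes were called, 10.6% below and 7.68% above 0. Without a composition factor 57.8% of all calls lay above 0, against 42.1% with it, and the counts of Clec genes were the same. For Clec4a2 the difference was -5.44 ± 0.79 (adjusted p = 0.00183), for Clec7a -4.34 ± 0.85 (adjusted p = 0.00689) and for Clec4a3 -3.69 ± 0.66 (adjusted p = 0.00451). For Clec2i it was 1.50 ± 0.24 (adjusted p = 0.00266). These 4 calls held under the alternatives tried. The other 4 were lost without single spleen libraries. Clec10a, at -4.77 ± 1.26 (adjusted p = 0.0226), was lost without cKO replicate 1 or 3 or WT replicate 1 (adjusted p = 0.0534 to 0.113), and its value was -8.79 without WT replicate 2. Clec4a1, at -2.31 ± 0.61 (adjusted p = 0.0220), was lost without cKO replicate 1 or WT replicate 2 (adjusted p = 0.0507 and 0.0588). Clec4n, at -2.60 ± 0.68 (adjusted p = 0.0229), was lost without cKO replicate 1 or 2 or WT replicate 2 (adjusted p = 0.0515 to 0.0522). Clec1b, at -3.06 ± 0.87 (adjusted p = 0.0280), was lost without cKO replicate 1 or 3 or WT replicate 1 or 3 (adjusted p = 0.0557 to 0.0695). Without spleen cKO replicate 1, 3 genes, Clec4a2, Clec4a3 and Clec7a, were called below 0. Clec2g, Clec3b and Clec4b1 were not called in this comparison, and each was called below 0 without a filter on low counts (adjusted p = 0.00175, 0.0209 and 0.0444). Clec2g was also called below 0 by DESeq2, with a replicate block and without tumor WT replicate 1 or 3. The same held for Clec4b1 by limma on RPKM and without tumor cKO replicate 1, and for Clec3b without tumor WT replicate 1. Clec12a was called below 0 only without a filter. The difference of the effects uses the same libraries as the 2 genotype comparisons and adds no independent evidence to them.

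Most of the genes through which these receptors signal were also lower in tumor cKO. Of 18 genes of the Syk and Card9 pathway, 12 were called lower and 0 higher, with a median log2 difference of -1.34, against -0.12 over all genes, of which 21.6% were called lower and 16.4% higher. All 10 macrophage markers were called lower in the same libraries, and their part in these calls was not tested. Without a composition factor 12 were lower and 2 higher, and without tumor WT replicate 2, 13 were lower and 1 higher. Syk itself had 328, 329 and 113 CPM in tumor cKO, against 833, 472 and 828 CPM in tumor WT (-1.47 ± 0.34, adjusted p = 0.00585). The adaptor Fcer1g had 67.8, 58.4 and 29.0 CPM in tumor cKO, against 155, 128 and 157 CPM in tumor WT (-1.50 ± 0.30, adjusted p = 0.00219). Both groups were apart for both genes. Card9 had 23.9, 25.4 and 7.94 CPM in tumor cKO, against 52.3, 50.01 and 50.4 CPM in tumor WT, and its difference of -1.42 ± 0.57 was not called (adjusted p = 0.0690), although it was without spleen WT replicate 3 (adjusted p = 0.0375) and with only the 2 groups in the fit (adjusted p = 0.0407). Syk and Fcer1g were present in spleen too, Syk at 923 ± 68.0 CPM in spleen cKO and 977 ± 67.4 CPM in spleen WT and Fcer1g at 30.0 ± 4.85 CPM in spleen cKO and 34.0 ± 12 CPM in spleen WT, while Card9 was low there, at 0.942 ± 0.833 CPM in spleen cKO and 0.756 ± 0.660 CPM in spleen WT. No gene of this list was called between the genotypes in spleen.

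Of 26 further C-type lectin receptors without a Clec name, 21 were tested, of which 11 were called lower in tumor cKO and 3 higher, where 21.6% of all genes were called lower and 16.4% higher. Mrc1 is itself one of the 10 macrophage markers, which were all called lower. This count rests on single libraries: 5 were lower without tumor cKO replicate 2 or without tumor cKO replicate 3, 6 without tumor WT replicate 2 and 4 when tumor WT replicate 2 and tumor cKO replicate 3 were both left out. With those 2 libraries left out 1 gene was called higher. The mannose receptor Mrc1 had 142, 147 and 39.1 CPM in tumor cKO, against 1250, 2070 and 1798 CPM in tumor WT (-3.97 ± 0.46, adjusted p = 0.000146). Mgl2, the close relative of Clec10a, had 12, 8.42 and 3.95 CPM in tumor cKO, against 60.04, 238 and 93.7 CPM in tumor WT (-4.01 ± 0.61, adjusted p = 0.00119). The groups did not overlap for either gene. The 3 genes called higher were Ly75 (1.01 ± 0.20, adjusted p = 0.00153), the lymphocyte activation marker Cd69 (0.73 ± 0.19, adjusted p = 0.00857) and Fcer2a (2.0 ± 0.65, adjusted p = 0.0319). The Cd69 call was lost with those 2 libraries left out (0.46, adjusted p = 0.0625), and Fcer2a was at 3.07 without tumor WT replicate 2. The Fcer2a call was lost without any 1 of tumor cKO replicates 1 and 3 and tumor WT replicates 1 and 3 (adjusted p = 0.0521 to 0.133).

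Most genes of a list of possible partners of Clec proteins were lower as well. The list was made by hand. It includes Klrb1c and Havcr2, each called lower, and Sap130, which was not called. Whether these genes code for proteins that bind a Clec protein was not checked. Of 8 genes 6 were called lower in tumor cKO and 0 higher, where 21.6% of all genes were called lower, and 3 were lower with only the 2 groups in the fit. Of the 8 genes 4 are Klrb1 genes of NK cells, of which Klrb1c is also among the 8 NK cell markers. In tumor cKO 6 of those markers were called lower, and 3 without tumor cKO replicate 3, and the part of NK cells in these calls was not tested. Pdpn, the podoplanin that CLEC-2 binds, had 111, 77.7 and 27.1 CPM in tumor cKO, against 272, 301 and 286 CPM in tumor WT (-1.99 ± 0.47, adjusted p = 0.0172), and no reads in spleen. Its call was lost without tumor cKO replicate 2 (adjusted p = 0.0534) or tumor WT replicate 2 (adjusted p = 0.0987). Klrb1b, the receptor for Clec2d, had 7.60, 7.46 and 6.35 CPM in tumor cKO, against 23.5, 21.7 and 26.5 CPM in tumor WT (-1.75 ± 0.22, adjusted p = 0.000123). Klrb1f, the receptor for Clec2i, had 0.427, 0.601 and 0.620 CPM in tumor cKO, against 1.57, 1.04 and 0.844 CPM in tumor WT (-1.05 ± 0.27, adjusted p = 0.00848, or 0.127 with only the 2 groups in the fit). The groups did not overlap for these 3 genes, and Klrb1f was lower in the tumor cKO libraries in which its ligand gene Clec2i was higher. In spleen Klrb1f had 34.3 ± 3.67 CPM in cKO and 32.7 ± 2.28 CPM in WT (SD, n = 3 each).

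The other 10 Clec genes, Clec2e, Clec2f, Clec2j, Clec2l, Clec4a4, Clec4b2, Clec4f, Clec4g, Clec11a and Clec18a, did not pass the filter. They had 2 to 90 reads each over all 12 libraries and at most 1.03 CPM in any 1 of them, and were not tested in the fit over the 16831 genes. In the fits without a filter or with a library left out, Clec4a4 was the only one of the 10 called. Clec4a4 had 0, 0.301 and 0.0387 CPM in tumor cKO, against 0.581, 0.817 and 1.03 CPM in tumor WT, with 2 reads in spleen WT and none in spleen cKO. It was called lower in tumor cKO without tumor cKO replicate 2, and higher in tumor than in spleen for WT without a filter and without any 1 of 8 libraries. Clec2e and Clec2j had under 3 reads. Some reads of tested genes cannot be placed for certain, since Clec1b and Clec9a share 184 exon bases on the same strand, 3.61% of those of Clec1b and 5.59% of those of Clec9a.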

How the data were processed

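Reads were mapped by the authors to the mouse genome mm10 with TopHat2 2.0.6, per the submitters' processing notes. How reads were counted, with which annotation and strand setting, is not given in the sources used here. Whole-number counts per gene, without normalization, were deposited by the authors for 12 libraries, with RPKM values, which the deposited counts, gene lengths and totals gave back in 100% of nonzero cases within a relative tolerance of 0.001. Between 68.8% and 73.3% of counts from 1 to 49 were even. Whether both reads of a pair were counted was not tested, and intervals and floors cover counting error only. Counts were tested in R 4.3.3 with edgeR 4.0.16: genes kept by filterByExpr (16831), TMM factors, a robust quasi-likelihood fit with 1 mean per group and 8 residual degrees of freedom, two-sided tests, and Benjamini-Hochberg adjustment over all genes. Levels between genes were compared in RPKM only, and all other levels are CPM.

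The alternatives were DESeq2 1.42.0, limma 3.58.1 on log2(RPKM + 0.1), RLE or no scaling factors, no filter or 1 CPM in at least 3 libraries, only the 2 groups compared, the replicate number as a block, and each library left out. Values in every library are given for the 19 genes that passed the filter, were called in at least 1 of the 5 comparisons and had a mean of at least 1 CPM in a group. The genes and lists were chosen with earlier results of these data known, and the alternatives for the related and marker lists were added after seeing the data. On simulated counts for 16353 genes in the tumor comparison, the fit called 26 of 100 genes changed 2-fold and 74 of 100 changed 4-fold. It made 8 false calls, 7.41% of the calls. No other genes were changed there, while 38.0% of all genes were called in the data. The adjustment was thus stricter in the simulation, and its rates do not carry over to this comparison. The level of the targeted gene is not reported here, so no check of the genotype labels was made with it. Coordinates follow the count table (GRCm38). All 31 genes were found in GENCODE vM21, 30 with the same start and end.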

Additional observations from a re-analysis of the deposited data

Results flagged for a closer look

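For 8 Clec genes the cKO effect in tumor differed from that in spleen by the interaction term of the edgeR fit, as a log2 difference of the effects. It was -5.44 for Clec4a2, -4.77 for Clec10a, -4.34 for Clec7a, -3.69 for Clec4a3, -3.06 for Clec1b, -2.60 for Clec4n, -2.31 for Clec4a1 and 1.50 for Clec2i. The calls of Clec10a, Clec1b, Clec4n and Clec4a1 were lost without single spleen libraries. Spleen WT held few reads over its 3 libraries, 6 for Clec4a2, 4 for Clec10a and 10 for Clec7a. No tested Clec gene was called between the genotypes in spleen by edgeR. For Clec4a2, Clec4a3, Clec4n, Clec1b and Clec7a every cKO library lay below every WT library in tumor and above every WT library in spleen. For Clec2i every cKO library lay above every WT library in tumor, and the spleen genotypes overlapped. The sum of the macrophage markers also moved in opposite directions, at 747 to 1981 CPM in tumor cKO and 5721 to 12230 CPM in tumor WT, and in spleen at 108.5 to 143 CPM in cKO, against 36.2 to 59.8 CPM in WT. Its part in these differences was not tested.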

How the results depend on the processing

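Of 52 called pairs of a Clec gene and a comparison, 42 stayed called under each of the 21 alternatives that tested them, 10 were lost under at least 1, and none of the 52 changed sign. A fit of only 2 groups was not run for the difference of the effects, which leaves 20, and Clec14a in tumor against spleen in WT was tested under 19. Among Clec genes not called in tumor, Clec4e, with single libraries left out between -0.57 and 0.61, turned to 0.12 without a composition factor, 0.39 by limma, 0.30 without tumor cKO replicate 3 and 0.61 without tumor WT replicate 1; Clec14a, likewise between -2.38 and 0.21, turned to 0.21 without tumor WT replicate 2 and 0.62 without both that library and tumor cKO replicate 3, where Clec12a turned to 0.20. The cause was not tested. In spleen cKO 0 Clec genes were called higher, against 1 by DESeq2, 4 when no filter was used and 1 with those 2 libraries left out together. In tumor cKO 1 was called higher, against 2 without a composition factor or by limma and 1 to 2 with single libraries left out, and 9 were called lower, against 6 to 9 with single libraries left out, 12 without a filter (adding Clec12a, Clec2d and Clec4d) and 10 by DESeq2 (adding Clec1a). The difference of the effects was below 0 for 7, against 11 without a filter and 3 to 9 with single libraries left out. Whether same-numbered libraries are paired is not known. Their deviations correlated at -0.0884 to 0.111, and without a comparison to differently numbered libraries this cannot show that they are unpaired. With a replicate block 8 Clec genes were lower in tumor cKO, where Clec4b1 was lost (adjusted p = 0.0632), 8 had a difference below 0 13 were higher in tumor than spleen in cKO, and Clec2g was called lower in tumor in WT (adjusted p = 0.0163). CPM and RPKM are different units, so levels were not compared between them. At a few reads per library, Clec12b, Clec14a, Clec4b1 and spleen levels of most receptors are limited by depth.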

Other observations

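Markers of other cells that carry Clec receptors also differed between the libraries. The sum of 8 neutrophil markers was 21.9 to 65.7 CPM in tumor cKO and 17.9 to 112 CPM in tumor WT, and of the 4 tested 1 was called lower in tumor cKO. The granule protein gene Elane was at 0 in tumor cKO and the surface marker Ly6g was at 0 in tumor WT. The sum of 5 eosinophil markers was 2.39 to 5.23 CPM in tumor cKO and 10.9 to 75.5 CPM in tumor WT, with all 4 tested called lower in tumor cKO and Epx at 0 there. Of 5 fibroblast markers tested 3, Col1a1, Col1a2 and Col3a1, were called lower in tumor cKO, and 0 were without tumor WT replicate 2, where Col1a1 was at 346 CPM against 31.6 and 12.3 CPM in tumor WT replicates 1 and 3. None was called without tumor cKO replicate 2 or 3 either. Of 3 erythroid markers tested none was called, with a summed level of 4.27 to 6.47 CPM in tumor cKO and 3.44 to 9.64 CPM in tumor WT. Of 6 B cell markers 1 was called higher and 1 lower in tumor cKO, against 2 higher and 0 lower without tumor WT replicate 2. The part of these cells in the Clec levels was not tested.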
